A study of Homo sapiens with 6 samples.

Results

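The 10 genes described here are 4 NF-kappaB subunits (NFKB1, NFKB2, RELA and RELB), the inhibitor NFKBIA, the feedback gene TNFAIP3, the survival gene BIRC3 and the chemokines CXCL1, CXCL5 and CXCL8. They were chosen by gene symbol, all 10 were found among the 60624 Ensembl genes of the table, and all 10 were among the 14778 genes with enough expression to be tested. The cells were A549, an established line of human lung adenocarcinoma. RNA was sequenced from 3 siCTR libraries, from cells given a control siRNA, and from 3 siCEP20 libraries, from cells given siRNA against CEP20, the gene of a centrosomal protein. Cells of both groups had been transfected 3 days earlier, with no other genotype or agent named in the labels, which also call the treatment a plasmid transfection. A single cell line was used, which of the study's siRNAs against CEP20 went into the siCEP20 libraries is not given in the sources used here, and the labels do not say whether the replicates were separate cultures. The methods speak in general of independent experiments without naming these libraries, so the p-values measure only the spread between these libraries. The labels name F-12K medium where the methods name DMEM. Values are in TPM, a transcript abundance corrected for length and scaled to the same total in each library, so levels of different genes can be compared but read depth is unknown.

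NF-kappaB is a family of dimeric transcription factors. In resting cells most dimers are held in the cytoplasm by IkB inhibitor proteins such as the product of NFKBIA. In the canonical pathway the IKK kinase complex marks IkB for destruction and dimers of the RELA and NFKB1 products enter the nucleus, whereas the noncanonical pathway acts through processing of the NFKB2 product, the main partner of RELB. NFKBIA and TNFAIP3 are themselves target genes and close negative feedback loops. CXCL1, CXCL5 and CXCL8 attract neutrophils and are well known NF-kappaB targets in airway epithelial and lung cancer cells.

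The promoters of the chemokines and of the target genes NFKBIA, TNFAIP3 and BIRC3 are shown because they carry close matches to the DNA sequence that NF-kappaB binds, although these genes did not move alike in the data that follow. The sequences are from RefSeq (GRCh38.p14, the hg38 build), run 5′ to 3′ on the strand of the gene, begin 200 bases before the RefSeq start, and end before the start of the gene in GENCODE. Capitals mark matches to the kappaB consensus or to GGANTTTCC.
CXCL1, chr4:73869193-73869392, plus strand
CXCL1: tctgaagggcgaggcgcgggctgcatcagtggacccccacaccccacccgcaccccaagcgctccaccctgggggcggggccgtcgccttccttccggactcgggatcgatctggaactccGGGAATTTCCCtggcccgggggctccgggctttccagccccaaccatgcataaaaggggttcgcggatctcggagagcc
CXCL5, chr4:73998678-73998877, minus strand
CXCL5: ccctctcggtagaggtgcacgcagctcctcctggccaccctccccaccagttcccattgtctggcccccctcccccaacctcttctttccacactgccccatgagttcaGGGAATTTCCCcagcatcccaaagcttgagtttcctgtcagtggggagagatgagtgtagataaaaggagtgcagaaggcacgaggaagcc
CXCL8, chr4:73740369-73740518, plus strand
CXCL8: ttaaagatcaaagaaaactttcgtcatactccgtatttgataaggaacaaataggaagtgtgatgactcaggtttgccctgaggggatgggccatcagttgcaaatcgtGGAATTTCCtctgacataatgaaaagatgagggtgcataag
NFKBIA, chr14:35404750-35404949, minus strand
NFKBIA: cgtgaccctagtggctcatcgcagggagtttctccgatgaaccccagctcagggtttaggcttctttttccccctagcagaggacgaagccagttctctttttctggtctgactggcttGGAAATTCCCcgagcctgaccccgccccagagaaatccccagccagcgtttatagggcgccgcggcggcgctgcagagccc
TNFAIP3, chr6:137867059-137867213, plus strand
TNFAIP3: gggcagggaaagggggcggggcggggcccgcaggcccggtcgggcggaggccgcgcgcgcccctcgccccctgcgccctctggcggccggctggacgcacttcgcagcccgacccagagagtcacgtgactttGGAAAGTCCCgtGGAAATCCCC
BIRC3, chr11:102317284-102317483, plus strand
BIRC3: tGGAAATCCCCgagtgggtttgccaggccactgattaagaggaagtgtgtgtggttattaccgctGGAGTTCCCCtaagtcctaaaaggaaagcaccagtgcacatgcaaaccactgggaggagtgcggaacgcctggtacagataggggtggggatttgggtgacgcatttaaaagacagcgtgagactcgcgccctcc

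RefSeq promoter windows of 300 bases (250 before the start and 50 after) were found for 9 of the 10 genes, all but RELB. Both motifs were searched on both strands, and a site could match both of them or match on both strands. CXCL1 and CXCL5 held the same stretch, GGGAATTTCCC, with the consensus match on the plus strand of the window at bases -79 to -70 in CXCL1 and -91 to -82 in CXCL5. CXCL8 had no match to the consensus, and its match to GGANTTTCC lay at -91 to -83. NFKBIA had an additional match to GGANTTTCC at -242 to -234, outside the printed stretch. NFKB1 had 2 windows, with matches in 1 of them, and NFKB2 had 3 windows, with matches in 2 of them. Neither of the 2 RELA windows held a match. In all, 8 of the 9 genes had a match in at least 1 window, and 9 of their 13 windows had one. Among all 34943 promoter windows of the same length, 11.3% held the consensus, 1.65% held GGANTTTCC and 12.1% held either. Most of these genes are textbook NF-kappaB targets, so these matches are a description of their sequences and not a result of the knockdown.

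CEP20 (chromosome 16, 15865719 to 15888625) was at 29.2, 30.5 and 35.1 TPM in the siCTR libraries and at 16.2, 15.3 and 17.3 TPM in the siCEP20 libraries, so the targeted transcript was lower in every siCEP20 library (log2 fold change -0.92, limma adjusted p = 0.000205). Of the 8 lung epithelial and A549 markers, 7 had at least 1 TPM in every library. EPCAM was the exception, at 0.83 to 1.24 TPM in siCTR and 3.01 to 3.85 TPM in siCEP20. The summed level of the 8 was 6205 to 6366 TPM in siCTR and 7463 to 7811 TPM in siCEP20. By adjusted p, 7 of the 8 were higher (30.2% of all tested genes) and 1 was lower (13.2%). With median-of-ratios scaling 5 were higher (19.7%) and 1 lower (21.8%). The lower gene was AKR1B10 (log2 fold change -0.18, limma adjusted p = 0.0163, and -0.03 with quantile normalization). The leukocyte marker PTPRC did not exceed 0.02 TPM, and 4 of the 8 leukocyte markers were under 1 TPM in every library, with CD3E and MS4A1 listed at 0. CD14, at 7.20 to 10.9 TPM, ITGAM, at 1.19 to 2.11 TPM, and CD68 had at least 1 TPM in every library. The summed level of the 8 leukocyte markers was 25.7 to 36.1 TPM in siCTR and 36.7 to 57.3 TPM in siCEP20. This difference was carried by CD68, which rose. Of the 7 stromal and endothelial markers, 6 were under 1 TPM in every library, among them DCN and COL1A2, listed at 0, and their summed level of 5.37 to 6.02 TPM in siCTR and 17.5 to 19.9 TPM in siCEP20 was nearly all COL1A1. The part of these markers in the results was not tested.

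To ask whether the NF-kappaB genes differed between groups, log2(TPM + 1) was compared with limma over all tested genes, with Benjamini-Hochberg adjustment, and calls required both an adjusted p below 0.05 and a change of more than 1.5-fold (or to less than 0.67). CXCL1, TNFAIP3 and RELA were called higher in siCEP20 cells and NFKB2 was called lower. NFKB1 and NFKBIA rose and RELB and CXCL5 fell by smaller amounts, while CXCL8 and BIRC3 did not pass the test. In counts, 3 of the 10 genes were called higher, where 11.2% of all tested genes were, and 1 was called lower, where 4.61% of all tested genes were. By adjusted p alone (below 0.05), 5 of the 10 were higher (30.2% of all tested genes) and 3 lower (13.2%). The groups did not overlap in 8 of the 10 genes, which was so in 55.4% of all tested genes. The median log2 fold change of the 10 genes was 0.24, beside 0.13 for all tested genes. Median-of-ratios scaling, which levels the typical gene between libraries, moved the median of all tested genes to -0.01. On that scale 3 of the 10 genes passed as higher (19.7% of all tested genes) and 3 as lower (21.8%). With 3 libraries against 3 an exact two-sided permutation test cannot go below p = 0.1, which each of the 8 separate genes reached, and gave 0.2 for CXCL8 and 0.7 for BIRC3. In these bulk libraries a change in the number of cells that express a gene and a change in RNA per cell cannot be told apart.

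**Figure D1:**
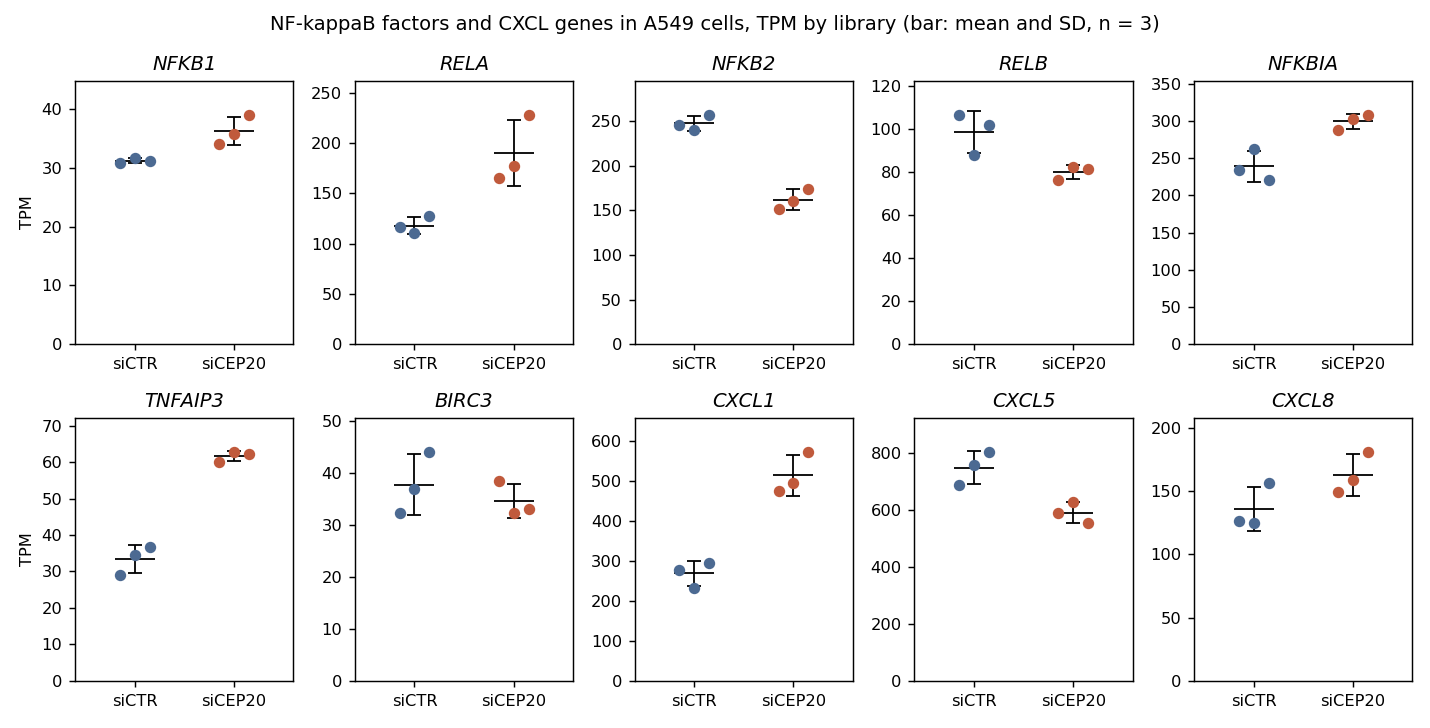
TPM (vertical axes, from 0) of each of the 10 genes in 3 siCTR and 3 siCEP20 libraries. Points are libraries and bars give the mean and SD. CXCL1 lay between 232 and 295 TPM in siCTR and between 475 and 571 TPM in siCEP20, CXCL5 was lower in every siCEP20 library, and the groups overlapped in BIRC3 and CXCL8.

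Among the subunits of the canonical pathway, RELA (ENSG00000173039, chromosome 11, 65653599 to 65663090), whose product carries the main activation domain, was higher after knockdown. It was at 116, 111 and 127 TPM in siCTR and at 166, 178 and 228 TPM in siCEP20. All siCEP20 values lay above all siCTR values, and siCEP20 replicate 3 was the highest. The log2 fold change was 0.67 ± 0.12 (SE, limma adjusted p = 0.00237). The call rested on that library and on the scale between libraries, since the log2 fold change was 0.54 without siCEP20 replicate 3 and 0.52 with median-of-ratios scaling, below the fold threshold in both although the adjusted p-values stayed under 0.05 (0.00259 and 0.00916). RELA overlaps the divergent transcript RELA-DT on the opposite strand, at a mean of 7.46 TPM.

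NFKB1 (ENSG00000109320, chromosome 4, 102501330 to 102617302), the precursor of the usual partner of RELA, was nearly level. It was at 30.8, 31.6 and 31.2 TPM in siCTR and at 34.1, 35.8 and 38.9 TPM in siCEP20. The groups did not overlap, and the difference was small, with a log2 fold change of 0.21 ± 0.071 (SE, limma adjusted p = 0.0449). This was within 0.08 of the median of all tested genes, and median-of-ratios scaling gave 0.06 (limma adjusted p = 0.533). The adjusted p-value stayed under 0.05 in 3 of 13 alternatives.

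The subunits of the noncanonical pathway were lower. NFKB2 (ENSG00000077150, chromosome 10, 102394110 to 102402524) was at 246, 240.2 and 257 TPM in siCTR and at 151, 161 and 174 TPM in siCEP20, so that every siCEP20 library was well below every siCTR library. The log2 fold change was -0.61 ± 0.064 (SE, limma adjusted p = 0.000257), close to the fold threshold, and the call was lost without siCEP20 replicate 1, at -0.56. RELB (ENSG00000104856, chromosome 19, 45001461 to 45038192) was at 106, 87.6 and 102 TPM in siCTR and at 76.2, 82.3 and 81.2 TPM in siCEP20. These groups came close to each other without overlapping, and the log2 fold change was -0.29 ± 0.081 (SE, limma adjusted p = 0.0189). The adjusted p-value of RELB stayed under 0.05 in 9 of 13 alternatives and lay between 0.0538 and 0.063 in the others.

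The make-up of the Rel family changed within each library, a measure that does not depend on scaling between libraries. The ratios and shares here were chosen after the values had been seen. The TPM ratio of RELA to RELB was 1.09, 1.26 and 1.25 in siCTR and 2.17, 2.16 and 2.802 in siCEP20. The ratio of NFKB2 to NFKB1 was 7.97, 7.60 and 8.23 in siCTR and 4.44, 4.49 and 4.48 in siCEP20. Neither ratio overlapped between groups, and each had an exact permutation p of 0.1. This followed from the single genes, since those of each pair had moved in opposite directions without overlap. Of the summed TPM of NFKB1, NFKB2, RELA, RELB and REL, NFKB2 took 49.7% ± 0.94 in siCTR and 34.3% ± 1.07 in siCEP20 (SD, n = 3 each). RELA took 23.7% ± 0.72 in siCTR and 39.9% ± 2.76 in siCEP20. The sum itself overlapped between groups, at 473 to 519 TPM in siCTR and 433 to 528 TPM in siCEP20 (exact permutation p = 0.5). The TPM ratio of NFKBIA to RELA also overlapped between groups. It was 2.02, 2.36 and 1.74 in siCTR and 1.74, 1.70 and 1.35 in siCEP20 (exact permutation p = 0.2).

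**Figure D2:**
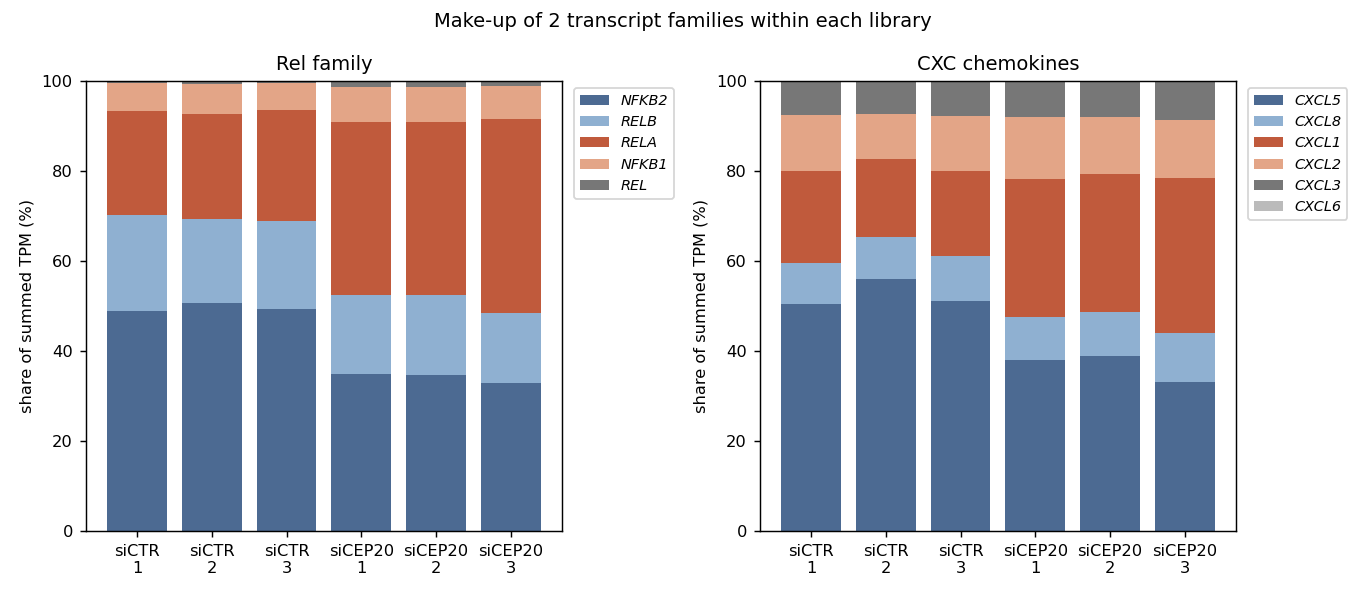
Share of summed TPM (percent, vertical axes) of the 5 Rel family transcripts (left) and of 6 CXC chemokine transcripts (right) in each of the 6 libraries. NFKB2 and CXCL5 took the largest shares in every siCTR library. In the siCEP20 libraries RELA took 38.2% to 43.1% and CXCL1 took 30.6% to 34.3%. CXCL6, at most 0.112% in any library, is too small to be seen.

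The 2 feedback inhibitors among the 10 genes, TNFAIP3 and NFKBIA, were both higher. TNFAIP3 (ENSG00000118503, chromosome 6, 137867214 to 137883314) encodes a ubiquitin-editing enzyme that shuts off signalling upstream of IKK. It was at 29.1, 34.6 and 36.7 TPM in siCTR and at 60.0, 62.7 and 62.1 TPM in siCEP20, with a wide gap between groups and little spread among the siCEP20 libraries. The log2 fold change was 0.87 ± 0.09 (SE, limma adjusted p = 0.000238), and it ran from 0.71 to 0.94 over 13 alternatives. TNFAIP3 overlaps the long noncoding gene WAKMAR2 on the opposite strand, at a mean of 1.05 TPM. NFKBIA (ENSG00000100906, chromosome 14, 35401079 to 35404749) was at 234, 262 and 221 TPM in siCTR and at 288, 302 and 307 TPM in siCEP20. The groups were separate, and the log2 fold change of 0.33 ± 0.069 (SE, limma adjusted p = 0.00638) did not reach the fold threshold. Median-of-ratios scaling gave 0.17 (limma adjusted p = 0.0968), and in the other 12 alternatives the adjusted p-value stayed under 0.05.

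BIRC3 (ENSG00000023445, chromosome 11, 102317484 to 102339403), a ubiquitin ligase that protects cells from death-receptor signalling, did not pass the test. Its promoter holds 2 of the consensus matches shown above. It was at 32.3, 36.9 and 43.95 TPM in siCTR and at 38.4, 32.3 and 33.1 TPM in siCEP20. The groups overlapped, and the log2 fold change was -0.11 (95% confidence interval -0.39 to 0.16, adjusted p = 0.474 from limma). That interval holds neither fold threshold, so a difference large enough to be called lay outside it. Median-of-ratios scaling gave -0.27 (95% confidence interval -0.52 to -0.01, adjusted p = 0.0887 from limma). That interval lies below 0 and also holds neither threshold, and BIRC3 did not pass there either.

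The chemokine members moved apart. CXCL1 (ENSG00000163739, chromosome 4, 73869393 to 73871308) was at 277, 232 and 295 TPM in siCTR and at 475, 494 and 571 TPM in siCEP20. Its lowest siCEP20 value was far above its highest siCTR value, with a log2 fold change of 0.94 ± 0.10 (SE, limma adjusted p = 0.000289). CXCL5 (ENSG00000163735, chromosome 4, 73995642 to 73998677) had the highest level of the 10 genes in both groups and moved the other way. It was at 688, 757 and 804 TPM in siCTR and at 591, 627 and 554 TPM in siCEP20, with no overlap and a log2 fold change of -0.34 ± 0.071 (SE, limma adjusted p = 0.0058). The adjusted p-value of CXCL5 stayed under 0.05 in all 13 alternatives, with log2 fold changes between -0.50 and -0.29. CXCL5 overlaps a long noncoding gene on the opposite strand, at a mean of 3.51 TPM.

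CXCL8 (ENSG00000169429, chromosome 4, 73740519 to 73743716), the prototype neutrophil attractant, was at 126, 125 and 156 TPM in siCTR and at 149, 159 and 181 TPM in siCEP20. The groups overlapped through siCTR replicate 3, which exceeded siCEP20 replicate 1. The log2 fold change was 0.26 (95% confidence interval 0.02 to 0.50, adjusted p = 0.073 from limma). Without siCTR replicate 3 it was 0.37 with an adjusted p-value of 0.0153, and median-of-ratios scaling gave 0.11 with 0.395, so these libraries do not settle whether CXCL8 differed.

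**Figure D3:**
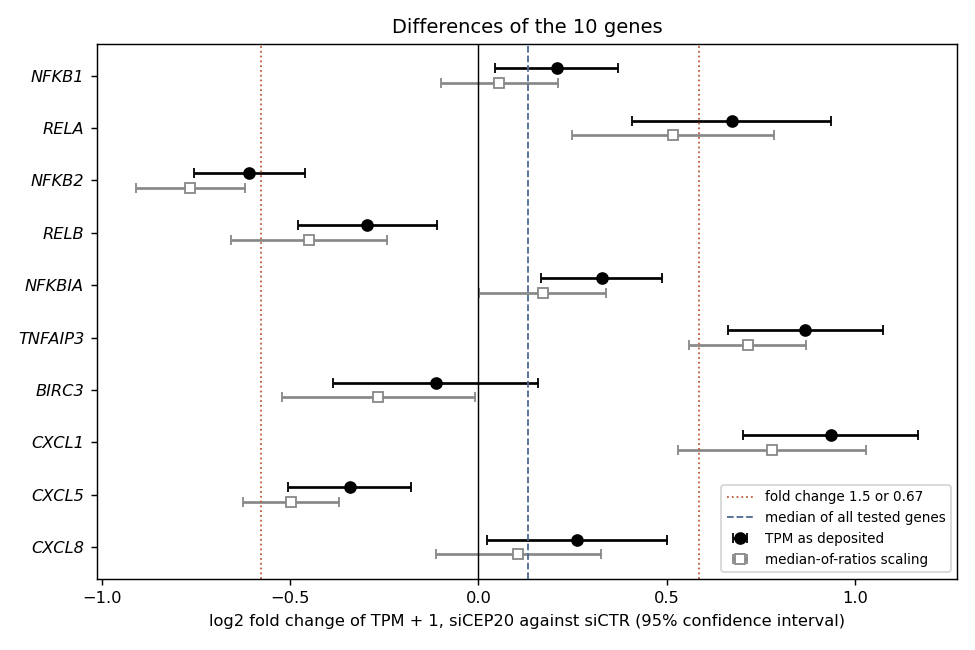
Log2 fold change of TPM + 1 (horizontal axis, siCEP20 against siCTR) of the 10 genes with 95% confidence intervals, from TPM as deposited (filled circles) and after median-of-ratios scaling (open squares). Dotted lines mark the fold thresholds and the dashed line the median of all tested genes, 0.13. TNFAIP3 and CXCL1 lie above the upper threshold and NFKB2 below the lower one on both scales, while RELA moves from 0.67 to 0.52.

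The ratio of CXCL1 to CXCL5 within a library was 0.40, 0.31 and 0.37 in siCTR and 0.80, 0.79 and 1.03 in siCEP20. CXCL5 exceeded CXCL1 in every library but siCEP20 replicate 3, where CXCL1 was slightly higher. The ratio of CXCL1 to CXCL8 was 2.19, 1.86 and 1.89 in siCTR and 3.19, 3.11 and 3.16 in siCEP20. Both were separate between groups (exact permutation p = 0.1 for each), and both were chosen after the values had been seen. For CXCL1 to CXCL5 the separation followed from the single genes, which had moved in opposite directions without overlap. Of the summed TPM of CXCL1, CXCL2, CXCL3, CXCL5, CXCL6 and CXCL8, CXCL5 took 52.6% ± 3.09 in siCTR and 36.7% ± 3.01 in siCEP20, and CXCL1 took 18.8% ± 1.54 and 31.8% ± 2.17 (SD, n = 3 each). The share of CXCL8 was 9.51% ± 0.40 and 10.1% ± 0.68, with overlapping groups.

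Levels of the 10 genes can be ordered since TPM is per length. In siCTR the order was CXCL5, CXCL1, NFKB2, NFKBIA, CXCL8, RELA, RELB, BIRC3, TNFAIP3 and NFKB1. The ranges of CXCL1 and NFKB2, of NFKB2 and NFKBIA, of CXCL8 and RELA, of BIRC3 and TNFAIP3 and of TNFAIP3 and NFKB1 overlapped, so these neighbours were not separated by the spread of the libraries. In siCEP20 the order was CXCL5, CXCL1, NFKBIA, RELA, CXCL8, NFKB2, RELB, TNFAIP3, NFKB1 and BIRC3, with overlapping ranges for CXCL5 and CXCL1, for RELA and CXCL8, for CXCL8 and NFKB2 and for NFKB1 and BIRC3. NFKB2 went from rank 3 to rank 6 and RELA from rank 6 to rank 4. In siCEP20 the ranges of RELA (166 to 228 TPM) and NFKB2 (151 to 174 TPM) also overlapped, so ranks 4 to 6 were not separated there. In siCTR the ranges of CXCL1 and NFKBIA overlapped as well, so ranks 2 to 4 were not separated.

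CXCL1, CXCL5 and CXCL8 lie in a cluster of chemokine genes on chromosome 4, in the order CXCL8, CXCL6, PF4V1, CXCL1, PF4, PPBP, CXCL5, CXCL3 and CXCL2, with CXCL9, CXCL10, CXCL11 and CXCL13 farther along the chromosome. The neighbours CXCL2 and CXCL3, close relatives of CXCL1, were higher in siCEP20, but by less than CXCL1. CXCL2 was at 171, 134 and 192 TPM in siCTR and at 214, 206 and 216 TPM in siCEP20 (log2 fold change 0.37, adjusted p = 0.0322 from limma). CXCL3 was at 102, 99.15 and 121 TPM and at 123, 127 and 141 TPM (log2 fold change 0.28, adjusted p = 0.0353). Neither passed the test with median-of-ratios scaling, where the log2 fold changes were 0.22 and 0.12.

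The other genes of the cluster were low. Of the 10 cluster genes beside CXCL1, CXCL5 and CXCL8, 4 were tested, with 3 higher (30.2% of all tested genes), 0 lower (13.2%) and 1 not past the test, and 1 was higher with median-of-ratios scaling (19.7%). CXCL6 was at 0.82, 0.92 and 0.45 TPM in siCTR and at 1.74, 1.57 and 1.63 TPM in siCEP20. Its mean over the libraries reached the 1 TPM required for testing only through the siCEP20 libraries. Its call as higher (log2 fold change 0.62, adjusted p = 0.0252 from limma) is therefore not independent of that filter. With median-of-ratios scaling CXCL6 was not called, at 0.54. It is 1 of the 3 higher genes above and the 1 that was higher with median-of-ratios scaling. PF4 ran from 0.82 to 1.47 TPM over all libraries and its groups overlapped. PPBP, CXCL10 and CXCL11 were listed at 0 in most libraries and did not exceed 0.26 TPM, and PF4V1, CXCL9 and CXCL13 were listed at 0 in every library. The interferon-induced chemokines CXCL9, CXCL10 and CXCL11 were thus listed at or near 0 beside abundant neutrophil attractants. Stretches of 50 bases were compared among 6 transcripts of these genes. Of these stretches, 5.33% in CXCL1, 10.1% in CXCL2 and 5.26% in CXCL3 were also found in another of the 6 transcripts. CXCL5, CXCL6 and CXCL8 shared none. The methods name reads longer than these stretches, and whether any read was shared was not tested.

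**Figure D4:**
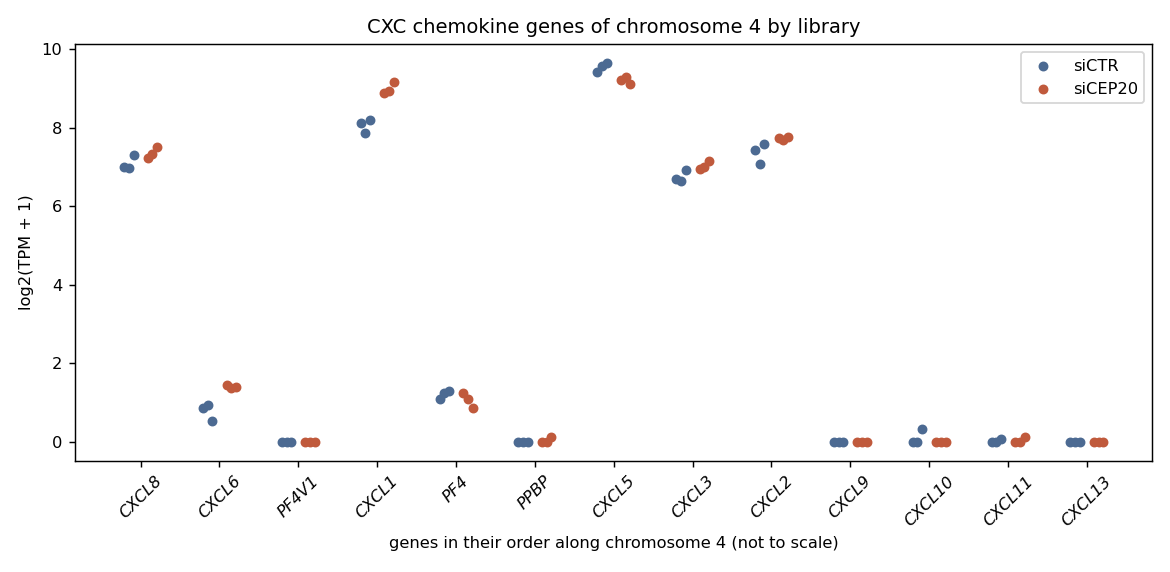
Level of the CXC chemokine genes of chromosome 4, as log2(TPM + 1) on the vertical axis, in 3 siCTR and 3 siCEP20 libraries. Each point is a library and genes stand in their order along the chromosome, not to scale. CXCL1 and CXCL5 move in opposite directions, and PF4V1, PPBP, CXCL9, CXCL10, CXCL11 and CXCL13 lie at 0 or near it.

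The other genes of the pathway were taken from 8 lists by role, with 116 genes, of which 115 were matched in the table and 84 were tested. By adjusted p, 39 of the 84 were higher, where 30.2% of all tested genes were, 14 were lower, where 13.2% were, and 31 did not pass. By the calling rule 18 were higher and 6 lower (11.2% and 4.61% of all tested genes). The higher genes include CXCL6, which was tested only through its siCEP20 values. With median-of-ratios scaling 12 were called higher and 7 lower (5.92% and 7.59% of all tested genes), and 27 were higher and 20 lower by adjusted p (19.7% and 21.8%). Their median log2 fold change was 0.25, beside 0.13 for all tested genes.

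A list of 7 further genes held Rel and IkB genes and also COMMD1, which is neither. All 7 were tested, with 4 higher, 2 lower and 1 not past the test (30.2% of all tested genes were higher and 13.2% lower). BCL3, a nuclear IkB protein that binds dimers of the NFKB1 and NFKB2 products, rose from 81.0 ± 6.75 to 197 ± 9.74 TPM (SD, n = 3 each, log2 fold change 1.27, adjusted p = 3.12e-05 from limma). REL, the subunit best known from lymphocytes, rose from 2.70 ± 0.02 to 5.76 ± 0.12 TPM (0.87). COMMD1, which promotes the removal of RELA from chromatin, fell from 49.1 ± 4.78 to 17.5 ± 1.31 TPM (-1.44), the lowest value among the pathway genes tested. The other lower gene was the IkB gene NFKBIE (-0.39, limma adjusted p = 0.0195), named after its value was seen.

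Among IKK subunits and signalling adaptors 5 of 21 were higher, against 30.2% of all tested genes, 4 were lower, against 13.2%, and 12 did not pass, so the share that was higher did not exceed the background. The kinase genes CHUK and IKBKB, chosen after their values were seen, were among those that did not pass, with log2 fold changes of -0.05 and -0.04 (-0.20 for each with median-of-ratios scaling). TAB2, an adaptor of the kinase that activates IKK, rose from 28.9 ± 2.17 to 55.4 ± 3.62 TPM (log2 fold change 0.92). TRAF3, which holds the noncanonical pathway in check, rose from 17.6 ± 0.28 to 27.4 ± 0.69 TPM (0.61, and 0.46 with median-of-ratios scaling, where it was not called). TRAF1, an adaptor of TNF receptors, fell from 15.1 ± 1.35 to 9.23 ± 0.89 TPM (-0.65).

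A mixed list of 12 genes held the linear ubiquitin ligase, deubiquitinases, partners of the TNFAIP3 protein and other regulators. Of these, 5 were higher, 2 lower and 5 did not pass, beside 30.2% higher and 13.2% lower among all tested genes. TNIP2, a partner of the TNFAIP3 protein, fell from 59.1 ± 1.61 to 38.8 ± 0.93 TPM (log2 fold change -0.59), whereas TNFAIP3 itself rose. ZC3H12A, a ribonuclease that degrades cytokine transcripts, rose from 102 ± 8.94 to 163 ± 6.49 TPM (0.67, and 0.52 with median-of-ratios scaling, where it was not called). TAX1BP1, an adaptor for TNFAIP3, rose from 74.0 ± 4.25 to 110 ± 5.90 TPM (0.57).

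Of 16 receptor genes 7 were tested, with 4 higher, 1 lower and 2 not past the test, where all tested genes had 30.2% higher and 13.2% lower. LTBR, the lymphotoxin beta receptor, rose from 247 ± 12.7 to 423 ± 17.3 TPM (log2 fold change 0.77), and TNFRSF1A, the main TNF receptor, from 332 ± 9.12 to 405 ± 13.5 TPM (0.28, and 0.13 with median-of-ratios scaling, where it did not pass). LTBR overlaps SCNN1A on the opposite strand, at a mean of 7.04 TPM. TNFRSF12A, the receptor for TNFSF12, fell from 453 ± 32.5 to 288 ± 17.0 TPM (-0.65). CXCR1 and CXCR2, the receptors for these neutrophil attractants, were listed at 0 in every library, and like TNF and IL1B were chosen after their values were seen. Of 11 ligand genes 3 were tested, with 1 higher, 0 lower and 2 not past the test (30.2% of all tested genes were higher and 13.2% lower). IL18 was the 1 that passed, from 119 ± 5.64 to 141 ± 11.3 TPM (0.24, limma adjusted p = 0.025, and 0.09 with median-of-ratios scaling, where it did not pass). LTB (0.41, adjusted p = 0.166) and TNFSF12 (-0.02, adjusted p = 0.903) did not pass. TNF did not exceed 0.75 TPM and IL1B did not exceed 0.83 TPM in any library.

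Among the chemokines outside the cluster 5 of 10 were tested, with 1 higher and 1 lower (30.2% and 13.2% of all tested genes) and 3 not past the test. CCL2, an attractant of monocytes, rose from 259 ± 89.7 to 486 ± 92.4 TPM (log2 fold change 0.94, adjusted p = 0.0112 from limma), with wide spread in both groups. CCL26, an attractant of eosinophils, fell from 8.91 ± 2.23 to 5.45 ± 1.13 TPM (-0.61), and CCL20 did not pass (0.28, adjusted p = 0.0951). Of 29 further target genes 25 were tested, with 16 higher, 4 lower and 5 not past the test (30.2% and 13.2% of all tested genes were higher and lower). With median-of-ratios scaling 12 of the 25 were higher and 6 lower (19.7% and 21.8% of all tested genes). CSF3, the granulocyte colony-stimulating factor, rose from 2.62 ± 0.43 to 14.998 ± 1.20 TPM (2.15), the highest log2 fold change among the pathway genes tested. PTGS2, the inducible cyclooxygenase, rose from 121 ± 18.8 to 347 ± 7.92 TPM (1.52), and EFNA1, an ephrin ligand, from 84.9 ± 2.72 to 194 ± 18.5 TPM (1.18). The adjusted p-values of these 3 genes were 3.12e-05, 4.53e-05 and 4.31e-05 (limma).

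**Figure D5:**
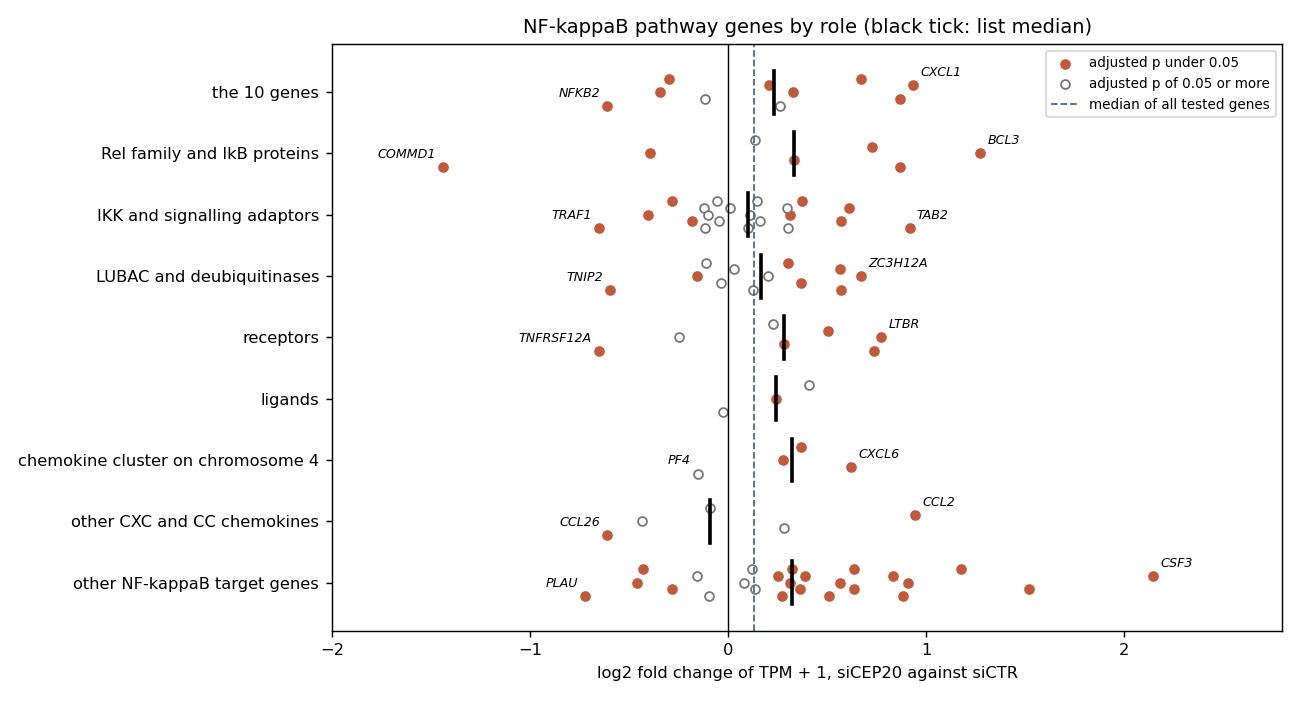
Log2 fold change of TPM + 1 (horizontal axis, siCEP20 against siCTR) of each tested gene, by role. Filled points had an adjusted p-value under 0.05 and open points did not, black ticks are list medians, and the dashed line is the median of all tested genes. Members of most roles lie on both sides of 0, from COMMD1 at -1.44 to CSF3 at 2.15.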

How the data were processed

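The submitters' processing notes name fastp (0.20.1), HISAT2 (2.1.0), StringTie (2.0) and hg38, and the authors deposited TPM per Ensembl gene for 6 libraries. The annotation release is not given in the sources used here. TPM keeps no read counts, so depth is unknown and the precision rests on 3 libraries a group. Each column was mapped to a sample by its name. Symbols (60370 of 60624 genes) and positions came from GENCODE 44 (hg38), and promoters from RefSeq. Of the pathway genes SOD2 was not matched.

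Genes averaging 1 TPM or more over the libraries were compared as log2(TPM + 1) with limma 3.58.1 (R 4.3.3, lmFit and eBayes with a trend, no covariate), adjusted by Benjamini-Hochberg over all tested genes. The authors tested with DESeq2, which needs counts. Fold changes on this scale understate those of low genes. Exact permutation tests were two-sided. Python 3.11.15 was used for ratios and figures. The limma comparison was tested on simulated data. The 10 genes, the lists and the rule for genes named (all 10, CEP20, every gene of the chromosome 4 list, and the 3 tested genes with the smallest adjusted p in each of 8 lists) were chosen with earlier results of these data known. The markers are a check of the sample labels. The closing section gives the alternatives. An overlap was counted where the other gene had a mean of at least 1 TPM. Overlaps are given for the 10 genes and LTBR only. Other named genes, among them CD68, TAX1BP1, PTGS2 and LIF, also had an overlap that is not given.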

Additional observations from a re-analysis of the deposited data

How the results depend on the processing

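Over 13 alternatives (pseudocount of 0.1, no filter or a mean of at least 5 TPM, no trend in eBayes, the replicate block, scaling by median of ratios or by quantiles, and each library left out in turn), 9 of the 10 genes kept their direction in every one. The exception was BIRC3, at 0.00043 without siCTR replicate 3, with values from -0.22 to 0.00043 over the libraries left out. The counts of called members were 3 higher and 1 lower. They became 5 and 3 with no fold threshold, 0 and 0 with a fold change of 2 required, 2 and 1 with median-of-ratios scaling, and 2 to 3 and 0 to 1 with 1 library left out. Of all tested genes, 1659 were called higher and 682 lower. Median-of-ratios scaling gave 875 and 1121, quantile normalization 924 and 1014, no fold threshold 4457 and 1944, a fold change of 2 261 and 147, and leaving out 1 library 1381 to 1905 and 613 to 706. The labels do not say whether the replicate numbers pair the libraries. Deviations of same-numbered libraries correlated at 0.157, -0.061 and -0.062, and those of differently numbered libraries at -0.121 to 0.170. With so few libraries these correlations do not settle whether the libraries were paired. With the replicate block 1654 genes were called higher and 694 lower, and again 3 and 1 of the members, with adjusted p-values of 0.0123 for CXCL8 and 0.0596 for NFKB1. The ratios and shares, recomputed with each library left out (an alternative chosen after seeing the data), kept their direction and moved by less than 1 SD. The cause of these shifts was not tested.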

Other observations

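A few more genes of the pathway lists are given as values. They were chosen after their values were seen and stand for no group. BCL2L1, an inhibitor of mitochondrial apoptosis, rose from 311 ± 11.8 to 401 ± 21.6 TPM (SD, n = 3 each, log2 fold change 0.37, limma adjusted p = 0.00156, and 0.21 with median-of-ratios scaling). CFLAR, which blocks death-receptor signalling, fell from 65.3 ± 2.68 to 47.3 ± 2.87 TPM (-0.46, limma adjusted p = 0.00132) without reaching the fold threshold, and was called lower with median-of-ratios scaling (-0.61). XIAP, a caspase inhibitor, fell from 28.5 ± 2.72 to 21.1 ± 3.55 TPM (-0.43, limma adjusted p = 0.028, and -0.58 with median-of-ratios scaling). BIRC2, the close relative of BIRC3, did not pass, at 22.4 ± 1.83 and 24.03 ± 1.55 TPM (0.10, limma adjusted p = 0.389, and -0.05 with median-of-ratios scaling).

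CSF1, a growth factor for macrophages, rose from 64.7 ± 1.58 to 116 ± 2.93 TPM (log2 fold change 0.83, and 0.68 with median-of-ratios scaling). The cytokine IL6 rose from 22.3 ± 5.19 to 34.8 ± 3.89 TPM (0.64, and 0.49 with median-of-ratios scaling, where it was not called). The early-response gene IER3 rose from 476 ± 26.0 to 881 ± 74.0 TPM (0.88, and 0.73 with median-of-ratios scaling). PLAU, the urokinase plasminogen activator, fell from 563 ± 28.6 to 341 ± 28.3 TPM (-0.72, and -0.88 with median-of-ratios scaling). The cytokine LIF (-0.10, limma adjusted p = 0.24) and the stress-response gene GADD45B (0.14, limma adjusted p = 0.295, and -0.02 with median-of-ratios scaling) did not pass, and LIF passed with median-of-ratios scaling (-0.25, limma adjusted p = 0.00724).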
